A study of Mus musculus with 19 samples.

Results

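Cells of a mammal read body temperature, which rises and falls over each day, partly through RNA-binding proteins and chaperones. Cold-inducible RNA-binding proteins bind mRNA and accumulate when cells are cooled by a few degrees. The heat-shock response runs the opposite way. On warming or protein damage, the transcription factor HSF1 raises the genes of HSP70, HSP110, HSP40 and HSP90 chaperones, which hold and refold other proteins, and neurons with long axons depend on such quality control. In this study mRNA was recovered from ribosomes of spinal cord cholinergic neurons over the day, and 10 genes of these systems were followed in it. They were the cold-inducible RNA-binding protein genes Cirbp and Rbm3, the transcription factor gene Hsf1, the HSP70 gene Hspa8, the HSP110 genes Hsph1 and Hspa4l, the HSP40 gene Dnajb1, the HSP90 genes Hsp90aa1 and Hsp90ab1, and Chordc1, the gene of an HSP90 co-chaperone. The 10 genes were taken by symbol from a table of 50559 genes. Cirbp and Chordc1 were chosen by their variation among the time points after the main axis of variation had been removed, so their levels over time are described here without a test. The other 8 genes belong to the same systems, and their values were tested.

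The animals were wild-type male ChAT-Cre;RiboTag fx/+ mice of the C57BL/6J strain aged 10 weeks, kept under 12 h of light and 12 h of darkness. RiboTag puts a hemagglutinin tag on a ribosomal protein wherever Cre recombinase is active, and here Cre was expressed under the control of the Chat locus, so that all cholinergic cells of the cord, motor neurons and others, could carry the tag. Spinal cords were taken at Zeitgeber time (ZT, hours after lights on) 0, 4, 8, 12, 16 and 20, with 3 biological replicates at each, which gave 18 immunoprecipitate libraries and 1 library of pooled input, that is, spinal cord RNA before precipitation. All samples were processed on the same day, per the methods of the study. Library totals ran from 6302150 to 22406844 counts in the immunoprecipitates, and the input held 15239792. In this bulk material fewer cells of a type and less RNA per cell cannot be told apart. Chat itself averaged 39.6 CPM (counts per library size after scaling) in the immunoprecipitates, with a range from 8.35 to 86.9, against 12.7 in the input, and Slc5a7, the choline transporter gene, averaged 256 against 65.0. The markers of oligodendrocytes, astrocytes, microglia, endothelial cells and erythrocytes were all at least 2-fold lower than in the input, as were the 3 of excitatory neurons and 3 of 4 of inhibitory neurons. The exception was Gad1, at 128 CPM against 137.5 in the input. Every one of these markers was detected at every time point. The 4 erythrocyte markers, summed, ran from 597 to 750 CPM in the 3 libraries of ZT12 and from 208 to 431 CPM in the other 15.

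A single axis dominated the differences between libraries. Computed from 9214 genes on the log2 CPM scale, the first principal component took up 52.8% of all variance. Its score averaged 16.5 ± 7.30 for ZT0, -13.1 ± 7.97 for ZT4 and -25.8 ± 19.1 for ZT8, then 1.92 ± 10.4 for ZT12, 15.1 ± 16.0 for ZT16 and 5.39 ± 11.0 for ZT20 (SD, n = 3). Replicate 2 of ZT8 had the lowest score, -42.6. Mean scores differed between time points, and scores also differed widely within a time point. Each of the 10 genes is therefore given below as measured and, in part, after this component had been regressed out of its log2 CPM. The contrasts of the wider lists are given as measured. What the component stands for was not tested. Summed markers of excitatory neurons correlated with it at r = -0.76 and those of inhibitory neurons at r = 0.66 over the 18 libraries.

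Heat-shock factors bind repeats of GAA in alternating orientation, and the windows around the starts of 2 of the genes held such repeats. Promoter windows of RefSeq on GRCm38.p6, which run from before to just after an annotated start, were found for 5 of the 10 genes, Cirbp, Chordc1, Hsph1, Dnajb1 and Hspa4l. They were searched for GAANNTTC and TTCNNGAA, each its own reverse complement, and for CACGTG, the E-box to which clock transcription factors bind, which is also its own reverse complement. At least 1 of the GAA motifs was found in 15.1% of 32851 windows of the same length, GAANNTTC in 7.86% and TTCNNGAA in 8.52%. An overlapping run of 3 GAA units was found in 0.603% and CACGTG in 7.15%. The Chordc1 and Hsph1 windows held overlapping runs of 3 units, and the windows of Cirbp, Dnajb1 and Hspa4l held none of these motifs. Both Cirbp windows (80167589 to 80167888 and 80167921 to 80168220) and the Hspa4l window (40745363 to 40745662) lay inside the gene spans. The first bases of those spans, 80165990 and 40744500, were in no window searched. The sequences below run 5′ to 3′, with all matches in capitals. They show where the repeats lie in Chordc1 and Hsph1 and, for contrast, the bases before the first of the 2 Cirbp starts.
Chordc1, chr9:18292167-18292285, + strand: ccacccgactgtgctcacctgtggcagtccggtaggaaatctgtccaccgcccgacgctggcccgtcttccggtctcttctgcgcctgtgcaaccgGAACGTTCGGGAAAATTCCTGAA
Hsph1, chr5:149636288-149636415, - strand: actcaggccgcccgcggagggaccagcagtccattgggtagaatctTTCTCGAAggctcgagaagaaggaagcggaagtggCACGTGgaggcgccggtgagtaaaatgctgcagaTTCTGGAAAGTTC
Cirbp, chr10:80167739-80167838, + strand: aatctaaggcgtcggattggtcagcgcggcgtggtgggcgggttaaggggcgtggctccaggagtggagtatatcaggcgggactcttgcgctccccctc
The run of Chordc1 lay from position -4 to 19, counted from the annotated start as position 1 with no position 0, and a further TTCNNGAA lay at positions 34 to 41, beyond the stretch shown. In the Hsph1 window with the more downstream start, TTCNNGAA lay at -54 to -47, CACGTG at -19 to -14, and an overlapping TTCNNGAA and GAANNTTC at 16 to 28. A match is a description of the letters and not a binding site.

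Cirbp mRNA on the ribosomes was lowest at the start of the light phase and highest around its end. Cirbp lies on chromosome 10 (80165990 to 80172786) and encodes a protein with an RNA recognition motif that binds and stabilises target mRNAs. Its CPM in replicates 1, 2 and 3 was 63.4, 65.1 and 58.3 for ZT0, 89.4, 99.5 and 92.7 for ZT4 and 92.6, 122 and 103 for ZT8. At ZT12 it was 135.9, 100.1 and 95.3, at ZT16 79.9, 64.2 and 104, and at ZT20 69.3, 65.3 and 91.8. All 3 libraries of ZT0 lay below all 9 libraries of ZT4, ZT8 and ZT12, whereas those of ZT16 and ZT20 were spread from near the level of ZT0 to that of ZT8. The mean rose from 62.3 ± 3.56 CPM at ZT0 to 110.4 ± 22.2 CPM at ZT12 (SD, n = 3), a 1.77-fold range of means. Of the 5 neighbouring pairs in the order of the means, 4 overlapped, so the data gave the phase only broadly, with a fitted 24-h peak at 9.93 h.

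With the first component removed, the Cirbp peak became narrower. On this scale, a log2 difference from the mean of the 18 libraries, replicates 1, 2 and 3 of ZT12 stood at 0.54, 0.24 and 0.32, and each of the other 15 libraries was lower. ZT16 followed with 0.18, -0.02 and 0.23, and the lowest mean was that of ZT0, -0.23 ± 0.10 (SD, n = 3). Time points then held 80.8% of the variance left by the component, which took up 58.8% of that of Cirbp. Before removal they held 69.4% of all its variance. These values were among those that selected the gene and carry no test. The erythrocyte markers were highest in the same 3 libraries, and their summed log2 CPM correlated with Cirbp at r = 0.66 before and r = 0.57 after removal of the component (n = 18 libraries in 6 time points). Their part in the ZT12 level of Cirbp was not tested.

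**Figure D1:**
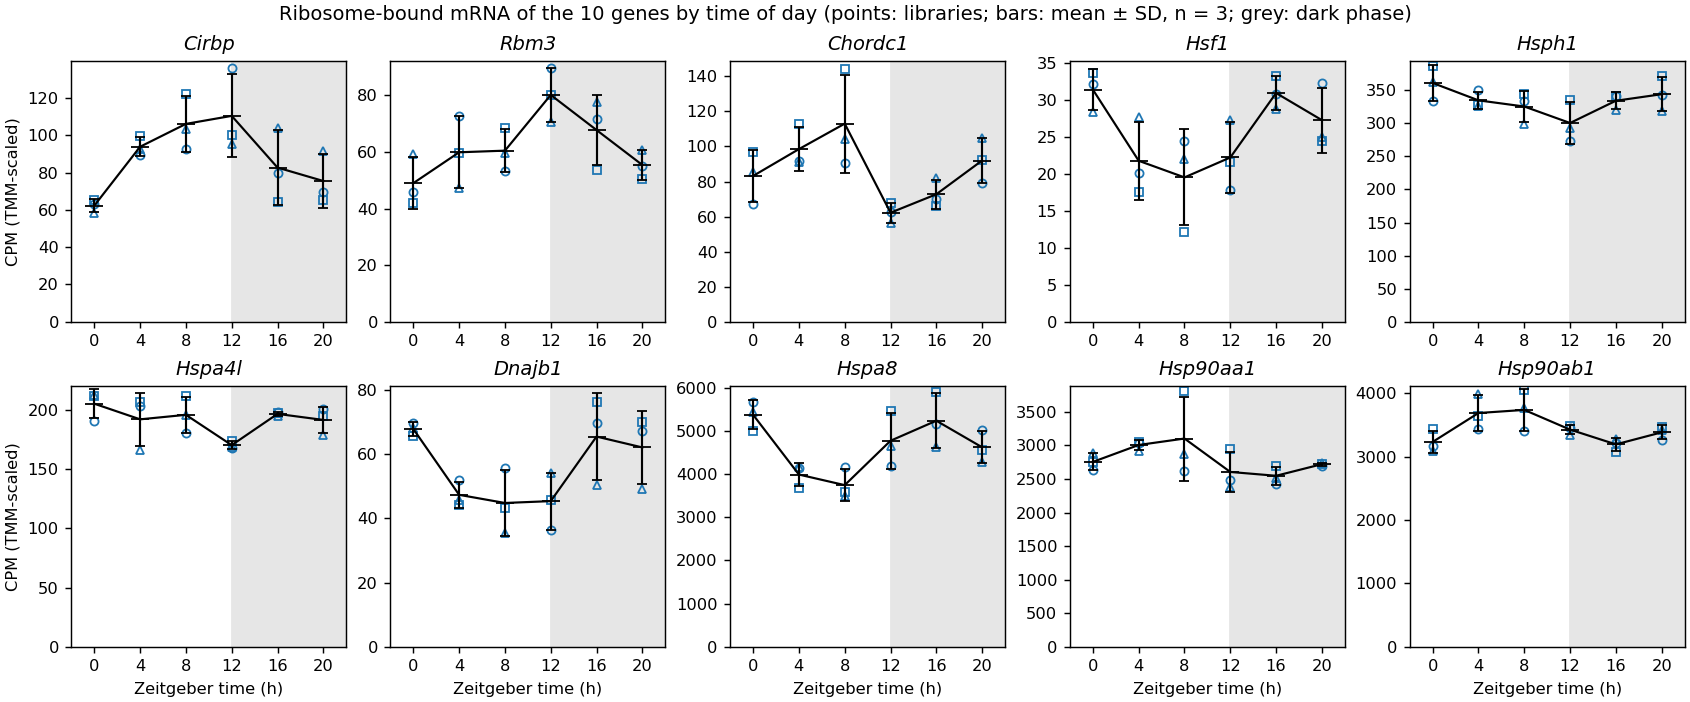
CPM of the 10 genes (vertical axis, from 0) against Zeitgeber time in hours (horizontal axis); open symbols are libraries (circle, square and triangle for replicates 1, 2 and 3), lines join means with SD bars (n = 3) and grey marks the dark phase. Cirbp and Rbm3 had their highest mean at ZT12, where Chordc1, Hsph1 and Hspa4l had their lowest, while Hspa8, Dnajb1 and Hsf1 had their lowest at ZT8.

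Rbm3, the other cold-inducible gene, had its highest and lowest means at the same time points as Cirbp. Rbm3 lies on chromosome X (8138975 to 8145880) and encodes a small RNA-binding protein known for a role in synapses after cooling. Its CPM in replicates 1, 2 and 3 was 45.7, 41.9 and 59.3 for ZT0, 72.6, 59.7 and 47.3 for ZT4 and 53.1, 68.5 and 59.7 for ZT8. At ZT12 it was 89.6, 80.2 and 70.6, at ZT16 71.8, 53.75 and 77.65, and at ZT20 55.0, 50.4 and 60.7. Only 3 of the other 15 libraries reached the lowest library of ZT12, 1 of ZT4 and 2 of ZT16. The means of ZT12 and ZT0, 80.1 ± 9.47 and 49.0 ± 9.16 CPM (SD, n = 3), differed 1.64-fold without overlap, and neighbours in the order of the means overlapped in 5 of 5 pairs. A GENCODE antisense gene, Rbm3os, overlaps Rbm3, the table has a row for a pseudogene, Rbm3-ps, and the expected counts of Rbm3 were not whole in most libraries, so the assignment of its reads is less certain.

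Rbm3 differed from Cirbp in that it hardly followed the main axis. The correlation of Rbm3 with the first component was r = -0.23, that of Cirbp r = -0.77 (n = 18). With the component removed, Rbm3 in replicates 1, 2 and 3 of ZT12 stood at 0.53, 0.40 and 0.26 on the log2 scale, and 2 of the other 15 libraries, both of ZT16, reached that range. Rbm3 correlated with the summed erythrocyte markers at r = 0.49 as measured and r = 0.42 with the component removed (n = 18), and their part in its ZT12 level was not tested. In the 24-h cosinor of edgeR, 2 of the 8 genes tested passed a false discovery rate (FDR) of 0.05, where the share over all 15572 genes tested was 6.24%. Rbm3 was 1 of them, with an amplitude of 0.29 (log2), a peak at 12.1 h and a Benjamini-Hochberg adjusted p = 0.0434 in edgeR. For any difference among the time points, edgeR gave Rbm3 an adjusted p = 0.076, and with the first component in the model its unadjusted p was 0.000687 and its adjusted p 0.245. With this component in the model 0 of the 8 genes passed in edgeR, where 0.116% of all genes did. At an unadjusted p of 0.05 there were 2, Rbm3 and Dnajb1, against 5.09% of all genes. In DESeq2 Rbm3 alone of the 8 passed the FDR, with 45 of all genes.

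The call of Rbm3 in the cosinor depended on single libraries. It was lost when replicate 1, 2 or 3 of ZT0, replicate 2 or 3 of ZT4, replicate 2 or 3 of ZT8, replicate 1 or 2 of ZT12, replicate 1 or 2 of ZT16 or replicate 1 or 2 of ZT20 was left out. Over these and the remaining single libraries, between 0 and 4 of the 8 genes and between 2 and 2668 of all genes were called.

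Chordc1 went the other way at the end of the light phase. Chordc1 lies on chromosome 9 (18292267 to 18314000) and encodes a protein with cysteine- and histidine-rich domains that binds HSP90. Its CPM in replicates 1, 2 and 3 was 67.4, 96.7 and 85.5 for ZT0, 91.4, 112.9 and 91.1 for ZT4 and 90.35, 144 and 104 for ZT8. At ZT12 it was 62.45, 67.8 and 56.4, at ZT16 70.1, 66.0 and 82.0, and at ZT20 79.2, 92.1 and 105. Between ZT8 and ZT12 the mean went from 113 ± 28.03 to 62.2 ± 5.69 CPM (SD, n = 3), a 1.82-fold difference with no overlap, and only 2 libraries outside ZT12 lay within or below its range, 1 of ZT0 and 1 of ZT16. Without replicate 2 of ZT8, the highest library, the difference was 0.63 instead of 0.83 on the log2 scale. A GENCODE pseudogene, Gm19178, overlaps Chordc1 on the opposite strand.

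After removal of the first component Chordc1 was at or above the mean of the libraries at all times but ZT12 and, by a small amount, ZT16. Replicates 1, 2 and 3 of ZT12 stood at -0.55, -0.30 and -0.42 on the log2 scale, and each of the other 15 libraries was higher. The highest means were those of ZT20, 0.18 ± 0.07, and ZT0, 0.18 ± 0.18 (SD, n = 3). Time points held 79.6% of the variance of Chordc1 that was left on this scale, against 69.4% of all its variance before. These values too were used to choose the gene. Chordc1 correlated with the summed erythrocyte markers at r = -0.21 before and r = -0.71 after removal of the component (n = 18), and their part in the ZT12 level of Chordc1 was not tested.

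**Figure D2:**
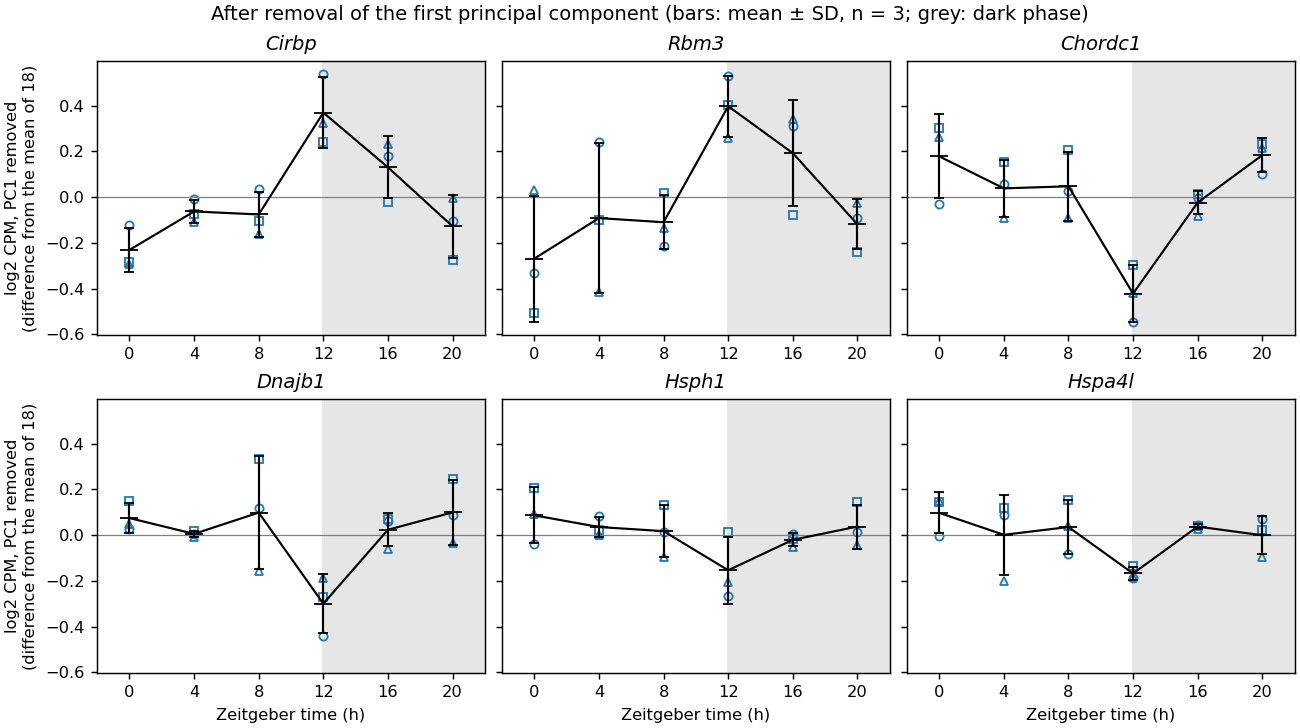
log2 CPM after removal of the first principal component, as the difference from the mean of the 18 libraries (vertical axis, the same in all panels), against Zeitgeber time in hours; open symbols are libraries, bars mean ± SD (n = 3) and grey the dark phase. At ZT12 all libraries of Cirbp and Rbm3 lay above 0, all of Chordc1, Dnajb1 and Hspa4l below 0 (as were those of Hsf1, not plotted), and those of Hsph1 between -0.27 and 0.01.

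Both HSP110 genes had their lowest mean at ZT12, and neither passed a test. Hspa4l, an HSP110 gene that acts as a nucleotide exchange factor for HSP70, read 170.3 ± 3.29 CPM there (SD, n = 3), with 168, 174 and 169 CPM in replicates 1, 2 and 3, and only 1 of the other 15 libraries, of ZT4, lay in or below this range. Hsph1, the other HSP110 gene and itself a classical target of HSF1, read 273, 336 and 292.5 CPM against 333, 387 and 362 CPM at ZT0. The libraries of Hsph1 at ZT0 and ZT12 overlapped, and 7 of the other 15 libraries lay in or below the range of ZT12. For any difference among the time points the adjusted p in edgeR was 0.427 for Hspa4l and 0.448 for Hsph1, and with the component in the model it was 0.991 for each. Both genes varied little, with SDs over the 18 libraries of 15.6 and 27.4 CPM around means of 192 and 333 CPM. The summed erythrocyte markers, highest at ZT12, correlated with Hspa4l at r = -0.57 before and r = -0.56 after removal of the component and with Hsph1 at r = -0.59 and r = -0.49 (n = 18), and their part was not tested.

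Among the 8 genes tested, Hspa8 had the lowest adjusted p for a difference among the time points. It lies on chromosome 9 (40801276 to 40805202) and encodes the constitutive HSP70, which folds new proteins and strips clathrin from vesicles. Its CPM in replicates 1, 2 and 3 was 5666, 5003 and 5447 for ZT0, 4131, 3678 and 4155 for ZT4 and 4167, 3575 and 3489 for ZT8. At ZT12 it was 4190, 5469 and 4655, at ZT16 5160, 5911 and 4633, and at ZT20 5012, 4567 and 4280. The libraries of ZT0 stood above all of ZT4 and ZT8, and those of ZT8 and ZT16 did not overlap either. For any difference among the time points, where 6.74% of all genes passed in edgeR, Hspa8 was the only one of the 8 genes that passed, with an adjusted p = 0.0263. It did not pass without replicate 1 or 3 of ZT0, replicate 2 of ZT4, replicate 2 or 3 of ZT8 or replicate 1 of ZT16. Over all genes 79, 108, 167, 57, 5 and 124 passed in these fits, against 1050 with all libraries. Dnajb1 joined Hspa8 without replicate 3 of ZT12, ZT16 or ZT20, with 990, 2058 and 1205 of all genes. Rbm3, Hsf1 and Dnajb1 did without replicate 1 of ZT8, with 2454 of all genes. Hspa8 followed the main axis closely (r = 0.92, n = 18), and the component took up 84.3% of its variance. Time points held 73.2% of all its variance before removal of the component and 18.8% of what remained after it. The expected counts of Hspa8 were not whole in any library, so that its share of reads that fit several genes is a model estimate, and 3 snoRNA genes lie in it on the same strand.

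Dnajb1 and Hsf1 were also high at ZT0 and low in the light phase. Dnajb1, on chromosome 8 (83608175 to 83612653), encodes the HSP40 that hands clients to HSP70. Its CPM in replicates 1, 2 and 3 was 69.8, 65.6 and 68.3 for ZT0, 51.9, 44.35 and 45.9 for ZT4 and 55.7, 43.4 and 35.4 for ZT8. At ZT12 it was 36.4, 45.7 and 54.15, at ZT16 69.9, 76.4 and 50.4, and at ZT20 67.1, 70.2 and 49.2. All libraries of ZT0 lay above all of ZT4, ZT8 and ZT12, and replicate 3 of ZT16 and of ZT20 fell among the latter. Dnajb1 was the second gene that passed the cosinor, with an amplitude of 0.34 (log2), a peak at 20.4 h and an adjusted p = 0.041 in edgeR. This call was lost without replicate 2 or 3 of ZT0, 2 or 3 of ZT4, 2 or 3 of ZT8, 1 of ZT12, 1 or 2 of ZT16, or 1 or 2 of ZT20. Between 2 and 801 of all genes were called in these fits, against 972 with all libraries. With the component removed, the 3 libraries of ZT12 lay at -0.44, -0.27 and -0.19 (log2), below each of the other 15. Dnajb1 correlated with the summed erythrocyte markers at r = -0.69 before and after this removal (n = 18), and their part was not tested.

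Hsf1, on chromosome 15 (76477362 to 76501155), encodes the main transcription factor of the heat-shock response and was the least abundant of the 10 mRNAs. Its CPM in replicates 1, 2 and 3 was 32.3, 33.7 and 28.4 for ZT0, 20.1, 17.55 and 27.75 for ZT4 and 24.5, 12.2 and 21.99 for ZT8. At ZT12 it was 17.9, 21.6 and 27.3, at ZT16 30.8, 33.3 and 28.8, and at ZT20 32.4, 24.5 and 25.05. The libraries of ZT0 and of ZT16 lay above all of ZT4, ZT8 and ZT12. The lowest, replicate 2 of ZT8, was the library with the lowest score on the first component, and Hsf1 correlated with this score at r = 0.82 (n = 18). Time points held 55.1% of the variance of Hsf1 before and 18.9% of what remained after the component was removed. On that scale its lowest mean was also that of ZT12, with -0.33, -0.23 and -0.07 (log2) in replicates 1, 2 and 3, and 5 of the other 15 libraries lay in or below this range. Activation of HSF1 takes place on the protein, which was not measured.

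The HSP90 genes had their highest means in the light phase, with smaller differences that passed neither test over all time points. For any difference the adjusted p in edgeR was 0.3 for Hsp90aa1 and 0.179 for Hsp90ab1. In the edgeR cosinor it was 0.13 and 0.106. Hsp90aa1 on chromosome 12 (110691036 to 110696395) encodes the stress-inducible HSP90 and Hsp90ab1 on chromosome 17 (45567778 to 45573261) the constitutive one. Hsp90ab1 read 3401, 4052 and 3761 CPM in replicates 1, 2 and 3 of ZT8 and 3220, 3075 and 3285 CPM in those of ZT16, its highest and lowest time points, which did not overlap. Hsp90aa1 read 2621, 3810 and 2878 CPM at ZT8 and 2428, 2697 and 2521 CPM at ZT16, its highest and lowest, and these overlapped. Expected counts of Hsp90aa1 were not whole in any library either. Over all 18 libraries Hsp90ab1 ran from 3075 to 4052 CPM and Hsp90aa1 from 2379 to 3810 CPM. Hsp90ab1 followed the main axis in the opposite sense to Hspa8 (r = -0.89, n = 18). After removal of the component the time points held 14.5% of the variance that Hsp90ab1 had left, against 62.0% of all of it before. Per kilobase of median transcript length, the mean level was 2095 CPM for Hspa8, 1367 for Hsp90ab1 and 910 for Hsp90aa1, against 104 for Hsph1, 67.0 for Cirbp, 51.6 for Rbm3, 31.4 for Hspa4l, 27.6 for Chordc1, 19.0 for Dnajb1 and 12.3 for Hsf1.

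Between ZT0 and ZT8, Hspa8, Dnajb1 and Hsf1 fell, and between ZT8 and ZT16 the same 3 genes rose. Both contrasts use the libraries of ZT8, so they are not independent. At ZT8 against ZT0, 9.02% of all 15572 genes were called lower and 8.95% higher in edgeR, and of the 8 genes 3 were called lower and 0 higher. Hspa8 fell by 0.52 (log2, SE 0.11, adjusted p = 0.00619 in edgeR), Dnajb1 by 0.60 (SE 0.18, adjusted p = 0.0258) and Hsf1 by 0.69 (SE 0.21, adjusted p = 0.0321). In all 3 genes each library of ZT8 lay below each of ZT0. Hsp90ab1 differed by 0.21 (SE 0.08, adjusted p = 0.0677 in edgeR) and Hsp90aa1 by 0.17 (SE 0.11, adjusted p = 0.29). Hspa8 alone was called without replicate 1 or 3 of ZT0 or replicate 2 or 3 of ZT8. Over all genes 639, 1128, 274 and 1114 were called in these fits, against 2798 with all libraries. Hspa8 and Dnajb1 were called without replicate 2 of ZT0, with 2449 of all genes. Hsp90ab1 was called as well as the 3 without replicate 1 of ZT8, with 4010 of all genes. DESeq2 with all libraries also called Hsp90ab1 beside the 3, with 3372 of all genes.

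At ZT16 against ZT8, 9.11% of all genes were called higher and 7.8% lower in edgeR, and of the 8 genes 3 were called higher and 0 lower. The log2 difference was 0.48 (SE 0.11, adjusted p = 0.00858 in edgeR) for Hspa8, 0.55 (SE 0.18, adjusted p = 0.0396) for Dnajb1 and 0.67 (SE 0.21, adjusted p = 0.0373) for Hsf1. With an oligodendrocyte marker score in the model Hsf1 was no longer called, and Hspa8 and Dnajb1 were. The HSP90 genes had values in the other direction, -0.23 (SE 0.08, adjusted p = 0.0507 in edgeR) for Hsp90ab1 and -0.28 (SE 0.11, adjusted p = 0.0733) for Hsp90aa1, which did not pass. None of the 8 genes was called without replicate 2 of ZT8 or replicate 2 of ZT16, where 87 and 72 of all genes were. Hspa8 alone was called without replicate 3 of ZT8 or replicate 1 of ZT16, with 931 and 892 of all genes. Both HSP90 genes joined the 3 without replicate 1 of ZT8, with 3885 of all genes. Hsp90ab1 alone joined the 3 without replicate 1 or 3 of ZT4, with 2569 and 2654 of all genes. With all libraries 2633 of all genes were called. DESeq2, and edgeR with library totals, called Hsp90ab1 beside Hspa8, Dnajb1 and Hsf1, with 3209 and 2528 of all genes. ZT20 was set against ZT8 as the opposing peak times of the study. Here 0 of the 8 genes were called in edgeR, as were 0% of all genes, with 3 of the 8 and 22.3% of all genes at an unadjusted p under 0.05. DESeq2 called 0 of the 8 and 1114 of all genes. Without replicate 1 of ZT8, edgeR called Dnajb1 and Hspa8 and 2320 of all genes.

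The rank test JTK_Cycle, which asks whether the order of the 18 values follows a cosine, gave 0 calls among the 8 genes after adjustment over all genes, where 0.0385% of all genes passed. Adjusted within the gene alone, 5 of the 8 had a p under 0.05, namely Hspa8, Hsf1, Dnajb1, Rbm3 and Hsp90ab1, where 15.9% of all genes did. Without replicate 3 of ZT16, Hspa8 passed after adjustment over all genes, and the count over all genes went from 6 to 752.

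**Figure D3:**
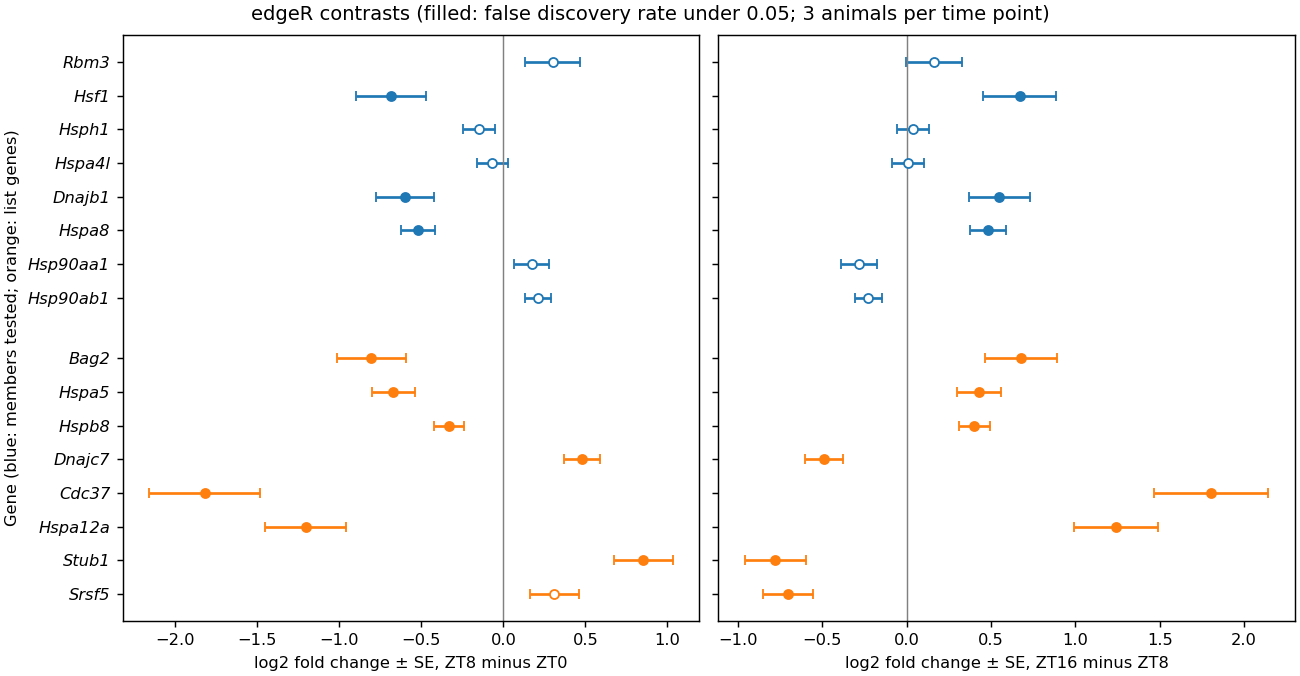
log2 fold change ± SE (horizontal axis) in edgeR for ZT8 minus ZT0 (left) and ZT16 minus ZT8 (right), for the 8 genes tested (blue) and 8 genes of the wider chaperone and splicing lists (orange, vertical axis); filled points had an FDR under 0.05, with 3 animals per time point. Hspa8, Dnajb1 and Hsf1 were lower at ZT8 than at ZT0 and higher at ZT16 than at ZT8, and Cdc37 and Hspa12a had the largest differences among the genes plotted.

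Which of the 10 genes varied together changed when the main axis was removed. As measured, Cirbp and Dnajb1 ran against each other (r = -0.90 over the 18 libraries), as did Hspa8 and Hsp90ab1 (r = -0.80), and each of these genes also correlated with the first component. With the component removed, Hspa8 and Hsp90ab1 no longer ran against each other (r = 0.13), and another grouping appeared. Chordc1 then correlated with Hsph1 at r = 0.85, with Dnajb1 at r = 0.85 and with Hspa4l at r = 0.76, where the values as measured had been 0.34, -0.31 and 0.50. Hsph1 and Dnajb1 correlated at r = 0.81, Cirbp and Rbm3 at r = 0.81, and Cirbp and Chordc1 at r = -0.85, against 0.18 before. The points share their time points and libraries, and Cirbp and Chordc1 were chosen on this scale, so these coefficients are a description.

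**Figure D4:**
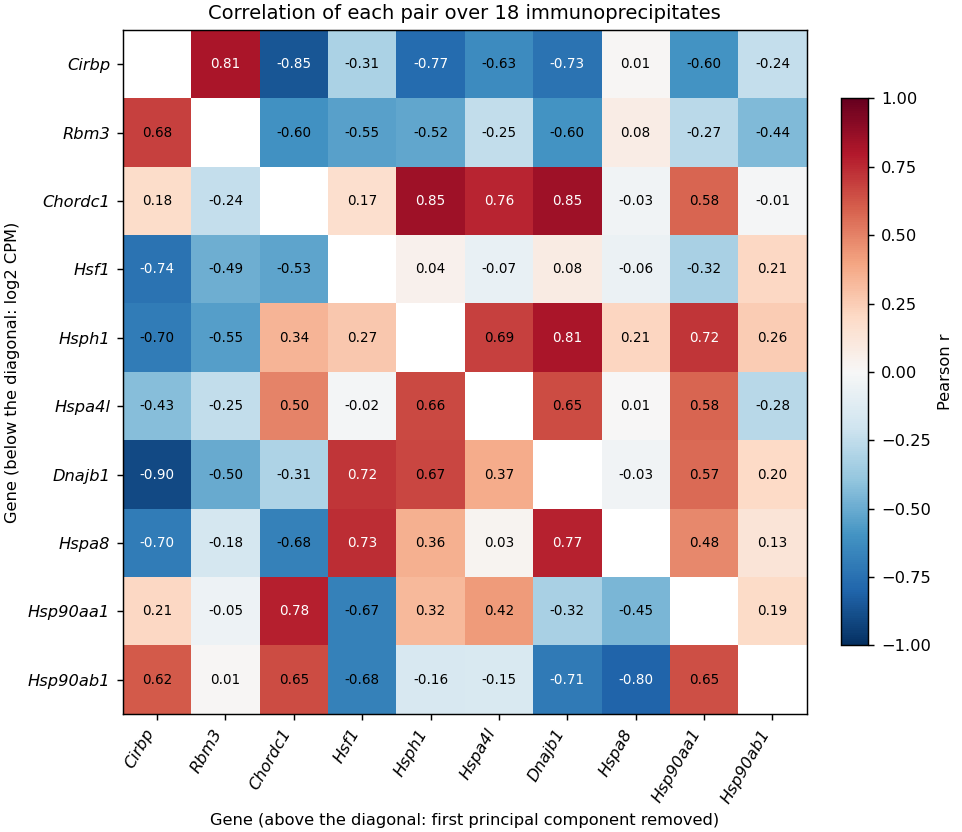
Pearson correlation of each pair of the 10 genes over the 18 immunoprecipitates (colour scale from -1 to 1, value in each cell), on log2 CPM below the diagonal and after removal of the first principal component above it. Above the diagonal Chordc1, Hsph1, Dnajb1 and Hspa4l form a block of positive values from 0.65 to 0.85, and Cirbp is negative with each of them, down to -0.85 with Chordc1. Hsp90aa1 is also positive with each of the 4, from 0.57 with Dnajb1 to 0.72 with Hsph1, and stands at -0.60 with Cirbp.

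Of 9213 genes compared with Chordc1 on the scale with the component removed, those most like it were Hsph1 (r = 0.85), Dnajb1 (r = 0.85), Dclk1 (r = 0.83), Odr4 (r = 0.82) and Syt4 (r = 0.81, all n = 18). As measured, the coefficients were 0.34, -0.31, -0.30, 0.28 and 0.92, so that those of Dnajb1 and Dclk1 had the other sign. With the component removed, the scale on which Chordc1 was chosen, the highest pair were chaperone genes among the 10, which is a description only. The lowest were Commd2 (r = -0.90), Zfp688 (r = -0.88) and Chpf2 (r = -0.87), at -0.23, 0.22 and -0.08 as measured. For Cirbp the most alike were Sugp1, a gene of a splicing factor (r = 0.90), Chpf2 (r = 0.85), Parl (r = 0.84) and Mrpl41 (r = 0.82), with 1 more that is not reported, and the least alike were Tmod1 (r = -0.93), Shc3 (r = -0.87) and Hacd3 (r = -0.86). As measured, Sugp1 stood at r = -0.39, Chpf2 at 0.88, Parl at 0.90 and Mrpl41 at 0.89, and Tmod1, Shc3 and Hacd3 at -0.34, -0.32 and -0.77.

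The wider families were read from 81 further genes of HSP70 and HSP110, J-domain, exchange factor, HSP90 co-chaperone, small heat-shock, chaperonin, HSF regulator and temperature-linked splicing groups, of which 78 were tested. In edgeR, 10 of the 78 were called higher and 11 lower at ZT8 than at ZT0, where the shares of all genes were 8.95% and 9.02%. At ZT16 against ZT8, 9 were called higher and 11 lower, where the shares were 9.11% and 7.8%. The median log2 difference was -0.07 and 0.06, against -0.003 and 0.005 over all genes. The cosinor called 10 of the 78 (6.24% of all genes) and any difference among time points 12 (6.74% of all genes). JTK_Cycle called 0, with 19 at a p under 0.05 when adjusted within the gene alone (15.9% of all genes). ZT20 against ZT8 gave 0 in edgeR, with 19 at an unadjusted p under 0.05 (22.3% of all genes). Calls thus went in both directions. Of 11 HSP70 and HSP110 genes 3 were called lower and 0 higher at ZT8 than at ZT0, of 14 J-domain genes 2 lower and 3 higher, of 10 exchange factors 1 lower and 3 higher, of 12 HSP90 and co-chaperone genes 3 lower and 1 higher, of 6 small heat-shock genes 2 lower and 0 higher, of 10 chaperonin genes 0 lower and 1 higher, of 5 HSF regulators 0 in either direction, and of 10 splicing genes 0 lower and 2 higher.

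Among the list genes named by rank of p were Cdc37, which delivers kinases to HSP90, and Hspa12a, a distant HSP70 relative. Cdc37 fell by 1.82 (log2, SE 0.34, adjusted p = 0.00519 in edgeR) from ZT0 to ZT8, from a mean of 179 ± 21.9 to 50.8 ± 34.7 CPM (SD, n = 3), and Hspa12a fell by 1.21 (SE 0.25, adjusted p = 0.00652). Hspb6, a small heat-shock gene outside the naming rule and added after its values were seen for the size of its change, fell by 1.77 (SE 0.50, adjusted p = 0.0196 in edgeR) at a low level, from 8.81 ± 1.25 to 2.63 ± 2.11 CPM (SD, n = 3), and differed by 1.77 in the other direction from ZT8 to ZT16 (adjusted p = 0.0207). Hspa5, the HSP70 of the endoplasmic reticulum, fell by 0.67 (SE 0.13, adjusted p = 0.00585 in edgeR), Bag2, an exchange factor of HSP70, by 0.81 (SE 0.21, adjusted p = 0.0141) and Hspb8, a small heat-shock gene that works with Bag3, by 0.33 (SE 0.09, adjusted p = 0.0177). Stub1, the ubiquitin ligase CHIP that tags chaperone clients, rose by 0.85 (SE 0.18, adjusted p = 0.00713 in edgeR), and Dnajc7, which binds HSP70 and HSP90, rose by 0.48 (SE 0.11, adjusted p = 0.00899). Each of the 7 genes other than Hspb6 was also called in the opposite direction from ZT8 to ZT16, a contrast that uses the same ZT8 libraries. All of these genes, Hspb6 included, correlated with the first component. The coefficient r was 0.97 for Cdc37, 0.99 for Hspa12a, 0.91 for Hspb6, 0.84 for Hspa5, 0.73 for Bag2 and 0.82 for Hspb8. It was -0.97 for Stub1 and -0.93 for Dnajc7. For any difference among the time points with this component in the edgeR model, none passed, and the lowest adjusted p was 0.75, for Hspa5. The contrasts were not tested with the component in the model. The count of called list genes from ZT0 to ZT8 was 7 without replicate 1 of ZT0 or replicate 3 of ZT8, 8 without replicate 3 of ZT0 and 2 without replicate 2 of ZT8. Over all genes these fits called 639, 1114, 1128 and 274, against 2798 with all libraries. From ZT8 to ZT16 the list count was 1 without replicate 2 of ZT8 or of ZT16, 6 without replicate 1 of ZT16 and 8 without replicate 3 of ZT8. Over all genes these fits called 87, 72, 892 and 931, against 2633. For the cosinor the list count was 0 without replicate 2 of ZT0, 2 of ZT4, 2 or 3 of ZT8, 1 of ZT12, 1 or 2 of ZT16 or 1 of ZT20, 1 without replicate 3 of ZT4, 4 without replicate 3 of ZT0 and 22 without replicate 3 of ZT20. Over all genes these fits called between 2 and 5, then 13, 213 and 2668, against 972.

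Srsf5, the gene of a splicing factor, was the only one of the 78 that differed among the time points with the first component in the edgeR model. Its adjusted p in edgeR was 0.000522 there, and 0.116% of all genes passed. Its mean was 91.6 ± 6.06 CPM for ZT0, 146 ± 7.05 for ZT4 and 114 ± 24.6 for ZT8, then 88.6 ± 3.63 for ZT12, 69.7 ± 11.2 for ZT16 and 117 ± 22.2 for ZT20 (SD, n = 3). The libraries of ZT4 ran from 139 to 152.5 CPM and those of ZT16 from 61.4 to 82.4 CPM, with no overlap. From ZT8 to ZT16 it fell by 0.70 (log2, SE 0.15, adjusted p = 0.00817 in edgeR), and its cosinor peak was at 3.48 h with an adjusted p = 0.0461 in edgeR.

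Against the pooled input, the HSP90 genes, Hspa8 and Cirbp were enriched in the cholinergic ribosome fraction. A gene counted as enriched where its mean CPM exceeded the input 2-fold or more and each of the 18 immunoprecipitates was above it, which held for 11.5% of 21169 genes, and as depleted in the mirrored case, which held for 21.2%. Of the 10 genes 4 were enriched and 0 depleted. The log2 ratio was 1.53 for Hsp90aa1 (2821 ± 324 CPM against 977, SD, n = 18), 1.49 for Hsp90ab1 (3482 ± 262 against 1236), 1.40 for Hspa8 (4676 ± 754 against 1767) and 1.199 for Cirbp (89.4 ± 21.5 against 38.9, with an exact 95% Poisson interval of 36.2 to 41.9 for the input). Chordc1 and Hsph1 lay above the input in all 18 libraries with log2 ratios of 0.87 and 0.71. Dnajb1 stood at 0.49 and lay above it in 16 of 18, Hsf1 at 0.18 in 12, Rbm3 at 0.12 in 11 and Hspa4l at 0.10 in 13. Cirbp and Rbm3 thus differed in their ratio, 2.30-fold against 1.09-fold. With a single input library these ratios carry no test, and the intervals cover counting error only. The median log2 ratio of the 10 genes was 0.79 and that of all genes -0.36. Scaled by library totals the median of all genes was -0.68, the log2 ratios of Rbm3, Hspa4l and Hsf1 became -0.20, -0.22 and -0.14, and Cirbp, at 0.87, was no longer enriched, which left 3 of the 10 genes and 1502 of the 21169.

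**Figure D5:**
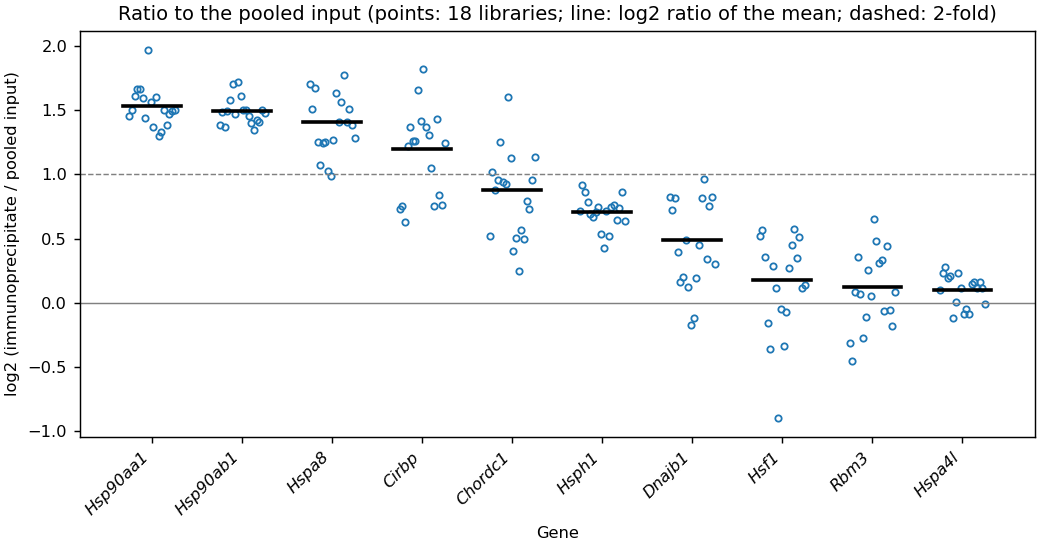
log2 ratio of each immunoprecipitate to the pooled input (vertical axis) for the 10 genes (horizontal axis, in order of the ratio); circles are the 18 libraries in order of time, bars the log2 ratio of the mean, the solid line 0 and the dashed line 2-fold. All libraries of Hsp90aa1 and Hsp90ab1 lay above the 2-fold line, whereas those of Hsf1, Rbm3 and Hspa4l lay on both sides of 0.

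The wider lists gave the same comparison a broader frame. Of the 81 genes 31 were enriched and 4 depleted, with a median log2 ratio of 0.66. Of 10 chaperonin genes 9 were enriched, of 12 HSP90 and co-chaperone genes 7, and of 10 splicing genes 0. The highest ratios among genes with at least 100 input counts were those of Hspb1, a small heat-shock gene (625 ± 71.7 CPM against 35.6, log2 ratio 4.14), Bag3, which directs clients to autophagy (560 ± 40.9 against 51.9, log2 ratio 3.43, SD, n = 18), and Hspb8 (214 ± 26.0 against 42.6, log2 ratio 2.33). The lowest were those of Cryab, a small heat-shock gene also expressed in glia (87.1 ± 7.83 against 283.5, log2 ratio -1.70), Clk1, a splicing kinase gene (log2 ratio -1.41), and Dnajb9, a J-domain gene of the endoplasmic reticulum (log2 ratio -1.28).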

How the data were processed

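The authors precipitated HA-tagged ribosomes from mouse spinal cord, sequenced the bound RNA, aligned reads with STAR 2.7.5 and quantified them with RSEM (per the submitters' processing notes). The authors deposited expected counts from RSEM, not normalized, which were rounded to whole numbers here. RSEM divides reads that fit several genes by a model, and the kit kept strand, while the strand setting of the counting was not given in the sources used here. Genes were kept with filterByExpr, which left 15572 of 25601 genes with a count in any immunoprecipitate. All 10 genes passed. Libraries were scaled by TMM in edgeR 4.0.16 (R 4.3.3), with a prior count of 2 in log2 CPM, and the input ratios were computed on a TMM scale that included the input. The CPM scale therefore differs slightly between the time course and the input comparison.

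The quasi-likelihood test of edgeR was used with Benjamini-Hochberg adjustment over all genes at 0.05, for a 24-h cosinor, for any difference among the 6 time points (with or without the first principal component as a term) and for 3 contrasts. JTK_Cycle used periods of 20, 24 and 28 h. The component was computed on genes with a mean log2 CPM above 3 and regressed out of each gene. The share of variance held by time points is that of 6 means fitted to 18 libraries. Such a fit takes up some variance without any effect of time, so a small share does not show one. The animals behind the replicate numbers are taken as separate from the word biological in the labels. Deviations of libraries with the same number correlated between -0.15 and 0.18, with 4 of 45 pairs above 0.1, which does not show a pairing by number.

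The members, lists, tests and alternatives were chosen with earlier results of these data known. Named were all 10 members, list genes called by the cosinor or a contrast (at most the 5 of lowest p in each), the 3 highest and 3 lowest input ratios of the lists, and the 5 most and 3 least correlated genes for Cirbp and Chordc1. A few genes that the rule names are not reported here. Transcript lengths were those of GENCODE M21, and positions and promoter windows those of RefSeq on GRCm38.p6, matched by symbol. The edgeR and JTK_Cycle tests were run on simulated data, and those of DESeq2 were not. The main axis simulated was unrelated to time and to the genes made rhythmic. The simulation therefore does not cover removal of a component whose mean score differs between time points. Alternatives were DESeq2 1.42.0 (test and size factors), library totals, upper-quartile scaling, other count filters, a prior count of 0.5, an oligodendrocyte marker score, a replicate block, other principal components and leaving out libraries.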

Additional observations from a re-analysis of the deposited data

How the results depend on the processing

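Scaling by DESeq2 size factors or upper quartiles changed no count of called genes by more than 1.5 times. The cosinor called 2 of the 8 genes, 1 with library totals, 4 with a filter of 1 count, 4 with DESeq2 and 0 with an oligodendrocyte score in the model. Over all genes these counts were 972, 876, 2349, 2312 and 4. The corresponding counts for the 78 list genes were 10, and 20, 19 and 1 with the filter of 1 count, DESeq2 and the score. For any difference among time points the count was 1, and 2 with library totals, 2 with at least 10 counts, 4 with 1 count, 2 with the score and 4 with DESeq2, and over all genes 1050, 1010, 1375, 2767, 1088 and 2502. With the first component in the model it was 0, 1 (Rbm3) with at least 10 counts, with 1 count or in DESeq2, and 2 (Dnajb1 and Hspa8) with the oligodendrocyte score in place of the component. Over all genes these were 18, 49, 262, 45 and 1088. ZT20 against ZT8 gave 0, and 1 (Dnajb1) with the filter of 1 count, where 1641 of all genes were called. JTK_Cycle gave 0, and 5 with adjustment within the gene alone. The causes were not tested.

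The correlations above do not show a pairing of the libraries by replicate number. With the replicate block the edgeR counts among the 8 genes were 2 for the cosinor and 1 for any difference among time points. They were 3 for ZT8 against ZT0, 3 for ZT16 against ZT8 and 0 for ZT20 against ZT8, each unchanged. Over all genes these counts were 774, 1004, 2756, 2582 and 7, against 972, 1050, 2798, 2633 and 0 without the block. JTK_Cycle called 0 of the 8 genes with the block, and its count over all genes went from 6 to 356.

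With replicates left out, the counts ran from 0 to 4 for the cosinor (0 to 22 in the lists), 0 to 4 for any difference, 0 to 1 with the component (1 without replicate 1 of ZT4), 0 to 4 for ZT8 against ZT0 (0 to 30 in the lists), 0 to 5 for ZT16 against ZT8 (0 to 27 in the lists), 0 to 2 for ZT20 against ZT8, 0 to 1 for JTK_Cycle and 4 to 4 for the input. Over all genes the counts ran from 0 to 2668 for the cosinor, 0 to 2454 for any difference and 10 to 38 with the component. For ZT8 against ZT0 they ran from 0 to 4010, and for ZT16 against ZT8 from 0 to 3885. For ZT20 against ZT8 they ran from 0 to 2320, and for JTK_Cycle from 0 to 752. Recomputing the component without the 10 genes and the lists left the difference of Cirbp between ZT12 and ZT0 at 0.60. The sign turned in uncalled differences only, with log2 values that ran from -0.017 to 0.262 for Hsp90aa1 from ZT0 to ZT8, from -0.018 to 0.086 for Hsph1 and -0.039 to 0.071 for Hspa4l from ZT8 to ZT16, and from -0.211 to 0.041 for Rbm3 and -0.111 to 0.03 for Hspa4l from ZT8 to ZT20. The difference of Cirbp between ZT12 and ZT0 ran from 0.64 to 0.91 (0.52 to 0.67 with the component removed), that of Chordc1 between ZT8 and ZT12 from 0.63 to 0.98. With 3 animals per time point, each value for a time point rests on few libraries, and depths differ up to the range given above.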
